A study of Mus musculus with 6 samples.

Results

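The genes described here encode secreted class 3 semaphorins, which guide migrating cells and growing axons, and the receptors that read them. They were 5 ligand genes (Sema3a, Sema3c, Sema3d, Sema3e and Sema3f), 2 neuropilin genes (Nrp1 and Nrp2) and 3 plexin genes (Plxna1, Plxna2 and Plxnd1), taken by symbol, and they make up 10 of the 54134 genes in the count table. RNA was sequenced from the mouse tailbud, the tissue caudal to the last somite, at E10.5, on the C57BL/6 strain. There were 4 wildtype libraries and 2 Cdx2P:Nr6a1 libraries, in which a Cdx2 promoter construct keeps the nuclear receptor gene Nr6a1 active in the tailbud, and embryos from the same kind of injection without the transgene served as wildtype. The Cdx2P:Nr6a1 embryos were transient transgenics, since no stable line was obtained, so each arose from its own injected egg. The labels number the libraries as replicates without saying more of their origin, and p-values therefore measure only the spread between these samples.

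Library totals lay between 44073460 and 67183802 counts on genes. Nr6a1 was at 3.91, 5.18, 5.53 and 6.89 CPM (counts scaled to a common library total) in wildtype and at 23.4 and 33.8 CPM in Cdx2P:Nr6a1 tailbuds, so each library matched its label, although the counts cannot separate the transgene from the endogenous gene. The tailbud label was borne out by T (Brachyury), at 886 to 1189 CPM, and Tbx6, at 206 to 273 CPM, over the 6 libraries. Among 13 cell type marker lists, the summed CPM of 4 did not overlap between the genotypes. Of the single genes tested, 18.6% did not overlap either. Neural tube markers (3.21 to 3.69 CPM in wildtype, 6.40 to 9.05 CPM in Cdx2P:Nr6a1) and neuron markers (53.0 to 66.1, then 71.4 to 77.9 CPM) had the higher sums in the transgenic libraries. Presomitic mesoderm markers (1066 to 1174, then 967 to 1016 CPM) and neural crest markers (271 to 315, then 200 to 213 CPM) had the lower sums. These lists did not move as a whole. Of the 6 neuron markers, Gap43, Tubb3 and Stmn2 had both transgenic libraries above wildtype, Elavl3 had both below, and Mnx1, the most abundant, and Isl1 overlapped. In the crest list Ngfr was called lower, while Tfap2a and Ets1 overlapped. Of the 6 neural tube markers, Sox1 was called higher (0.895 to 1.415 CPM in wildtype, 2.95 and 5.09 CPM in Cdx2P:Nr6a1). Neurog2 had both transgenic libraries above wildtype (0.061 to 0.222, then 0.635 and 0.863 CPM), and Irx3 and Hes5 overlapped. Olig2 and Pax6 were at 0 and at most 0.159 CPM in every library, and the crest markers Sox10 and Foxd3 were also at most 0.159 CPM. Y-linked genes were expressed in 1 wildtype and 1 Cdx2P:Nr6a1 library.

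Class 3 semaphorins are released by cells and act on neighbours. Most of them bind a neuropilin, which holds the ligand, and a class A plexin, which spans the membrane and signals by switching off small GTPases of the Ras family and by rearranging the cytoskeleton. Sema3a acts mainly through Nrp1 and Sema3f mainly through Nrp2, Sema3c can use either neuropilin, and Sema3e binds Plxnd1 without needing a neuropilin. In embryos these signals are known for repelling motor and sensory axons, for steering neural crest streams through the somites and for keeping vessels between the somites.

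All positions are those of the mouse build GRCm38 (mm10), and all 328 exons listed for these genes were the same in GENCODE M21. The ligands Sema3d, Sema3a, Sema3e and Sema3c lie in this order on the forward strand of chromosome 5, within 5.35 Mb from 12383385 to 17730268. Sema3f lies on chromosome 9 (107681500 to 107710475, reverse strand). Nrp1 lies on chromosome 8 (128358604 to 128503363) and Nrp2 on chromosome 1 (62703285 to 62818695), both on the forward strand. Plxna2 lies on chromosome 1 (194618218 to 194816869, forward strand), and Plxna1 (89316314 to 89362620) and Plxnd1 (115954811 to 115995005) lie on the reverse strand of chromosome 6. Of the exon bases of Plxna1, 970 (10.7%) are shared with Gm26811 on the opposite strand, and 80 bases of Nrp1 are shared with Mir1903. The other 8 genes shared no exon base with another gene.

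Nr6a1 belongs to the nuclear receptors, and its protein is known to bind the letters AGGTCA, most tightly when they are repeated end to end. The start regions of these genes were therefore read for those letters, on both strands, from 250 bases before to 50 bases after the RefSeq start. RefSeq windows on GRCm38.p6 were matched for 8 of the 10 genes, all but Sema3f and Plxna1. AGGTCA, or its reverse complement TGACCT, was found in 2 of the 8 windows, those of Nrp1 and Plxnd1, and in 16.3% of all 32851 windows. The longer AAGGTCA was in 1 of the 8, that of Nrp1, and in 4.72% of all windows, and the end-to-end repeat was in 0 of the 8 and in 0.00609% of all windows. The 3 windows below, written 5′ to 3′ on the strand of the gene, are those of both genes with a match and of Sema3a, the gene called below, with the match in capitals. They are chr8:128358823-128359122 (forward strand) for Nrp1, chr6:115994956-115995255 (reverse strand) for Plxnd1 and chr5:13396534-13396833 (forward strand) for Sema3a.
Nrp1: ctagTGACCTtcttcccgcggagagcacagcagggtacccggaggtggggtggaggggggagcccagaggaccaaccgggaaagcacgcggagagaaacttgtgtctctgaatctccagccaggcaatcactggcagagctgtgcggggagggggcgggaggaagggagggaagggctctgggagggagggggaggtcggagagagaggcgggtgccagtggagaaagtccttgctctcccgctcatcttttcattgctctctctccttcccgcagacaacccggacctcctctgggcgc
Plxnd1: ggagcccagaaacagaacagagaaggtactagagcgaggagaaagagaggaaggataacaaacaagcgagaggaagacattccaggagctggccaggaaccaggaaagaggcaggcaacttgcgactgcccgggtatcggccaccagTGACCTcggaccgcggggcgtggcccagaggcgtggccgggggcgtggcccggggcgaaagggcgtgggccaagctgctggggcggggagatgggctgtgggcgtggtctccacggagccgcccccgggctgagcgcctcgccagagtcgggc
Sema3a: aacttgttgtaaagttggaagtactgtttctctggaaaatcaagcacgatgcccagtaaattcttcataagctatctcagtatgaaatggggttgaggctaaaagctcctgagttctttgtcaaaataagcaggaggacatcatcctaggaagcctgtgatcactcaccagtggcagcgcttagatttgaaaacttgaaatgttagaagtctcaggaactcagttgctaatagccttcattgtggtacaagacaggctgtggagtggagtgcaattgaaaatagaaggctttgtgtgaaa
The match begins 246 bases before the RefSeq start in Nrp1 and 103 bases before it in Plxnd1. For Nrp1 that start lies 469 bases inside the gene as the count table lists it, so its window and match lie within the listed gene. The RefSeq start of Sema3a lies 271370 bases inside the gene as the count table lists it, whose first exon is further upstream, so the window does not show that upstream start. A match describes these letters only. The Sema3a window was 41.3% G and C, below the 52.7% that is the median of all windows, whereas those of Nrp1 (64%) and Plxnd1 (67%) lay above it.

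Low genes were left out, keeping those with more than 10 counts and more than 2 CPM in 2 or more libraries, and all 10 genes were among the 12733 kept. The genotypes were compared by the quasi-likelihood test of edgeR. A gene is described as called where its p, adjusted over all 12733 genes by the Benjamini-Hochberg method, was under 0.05. In wildtype tailbuds the receptors outweighed the ligands per length. Nrp2 was the highest at 24.7 ± 2.50 CPM per kilobase of exon (SD, n = 4), followed by Plxna1 (21.3 ± 0.465), Plxnd1 (16.4 ± 0.680) and Sema3f (12.03 ± 0.840). Below these came Plxna2 (9.23 ± 0.232) and Sema3e (4.22 ± 0.353), and the wildtype libraries of each of these 6 genes did not overlap those of the next. Sema3c (1.63 ± 0.241), Sema3a (1.53 ± 0.156), Nrp1 (1.49 ± 0.205) and Sema3d (1.47 ± 0.164) overlapped with one another and could not be ordered. Nrp2 exceeded 81.6% of the genes tested on this scale, and Sema3d exceeded 15.1%. The exon length is that of all transcripts of a gene together, so genes with many rare exons, such as Sema3a with 13868 bases and Plxna2 with 17174, are understated.

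**Figure D1:**
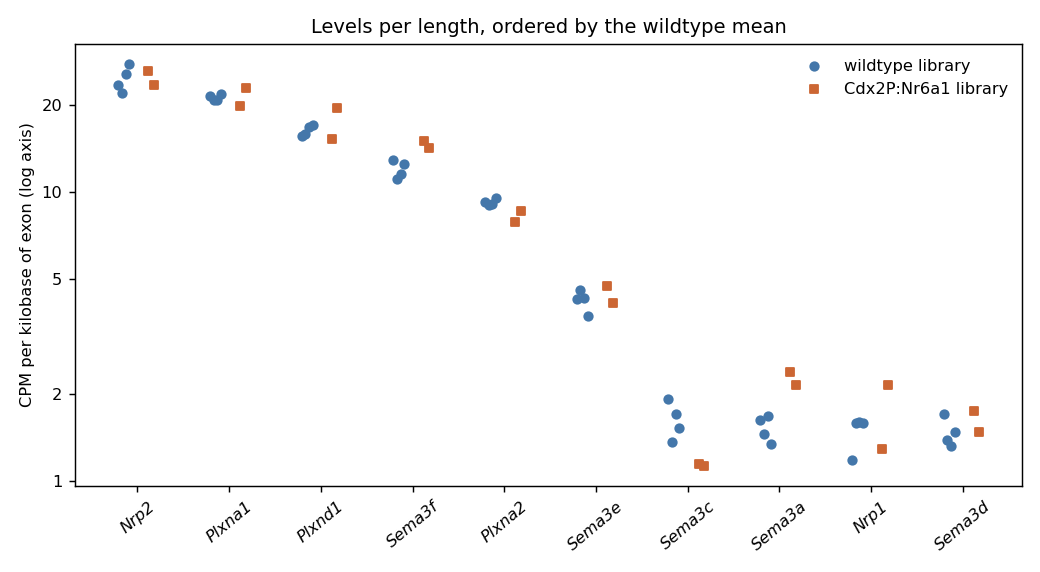
CPM per kilobase of exon (log axis) of the 10 genes in every library, with wildtype libraries as circles and Cdx2P:Nr6a1 libraries as squares, ordered by the wildtype mean. Nrp2 and Plxna1 stand highest, and Sema3c, Sema3a, Nrp1 and Sema3d share the lowest level in wildtype.

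Sema3f dominated the ligands. It took 55.9% to 60.8% of the summed ligand CPM per kilobase in wildtype and 60.0% to 61.5% in Cdx2P:Nr6a1 libraries. Sema3e followed with 18.1% to 23.0% in wildtype. The share of Sema3a was 6.51% to 8.18% in wildtype and 9.31% to 9.49% in Cdx2P:Nr6a1 libraries, which did not overlap. The share of Sema3c went the other way, from 6.84% to 8.57% down to 4.59% to 4.89%, also without overlap, and the shares of Sema3d overlapped between the genotypes. The log2 ratio of summed ligand to summed receptor CPM per kilobase was -1.67, -1.80, -1.85 and -1.92 in wildtype and -1.50 and -1.73 in Cdx2P:Nr6a1 libraries. The difference of 0.19 was within the spread (exact permutation test, two-sided p = 0.200, adjusted p = 0.4 over 2 ratios). With 15 arrangements of the libraries, the smallest p this test allows is 0.0667. Leaving out a Cdx2P:Nr6a1 replicate moved the difference to 0.076 (without replicate 1) or 0.31 (without replicate 2).

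Compared to wildtype controls, 1 of the 10 genes was called, Sema3a, where 1.59% of all genes tested were called (0.785% higher and 0.809% lower). Sema3a was higher in Cdx2P:Nr6a1 tailbuds, Sema3f was 1.21 times as high without a call, Sema3c was 0.697 times as high without a call, and the neuropilins were not called. For 4 of the 10 genes the transgenic pair fell outside the wildtype range on 1 side, above it for Sema3a and Sema3f and below it for Sema3c and Plxna2. The same held for 18.6% of the genes tested (10.1% above and 8.48% below). The same 4 genes had an unadjusted p under 0.05 (edgeR), as did 1342 of the 12733 genes tested. The median log2 fold change of the 10 genes was 0.07, against -0.001 over all genes tested.

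**Figure D2:**
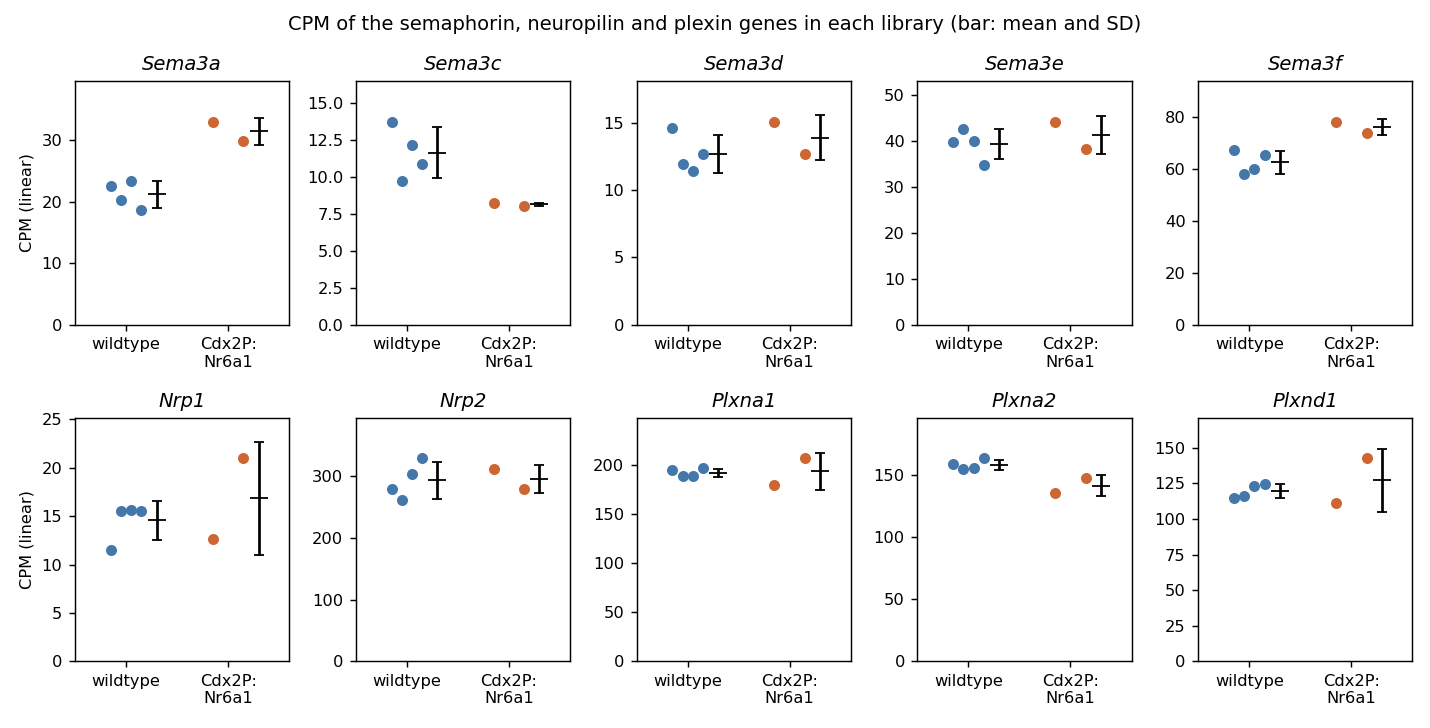
CPM (linear axis from 0) of each gene in the 4 wildtype and 2 Cdx2P:Nr6a1 libraries, 1 point per library, with the mean and SD beside the points. The genotypes separate for Sema3a, Sema3c, Sema3f and Plxna2, and the 2 transgenic libraries stand apart from each other for Nrp1 and Plxnd1.

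Sema3a, which repels many kinds of axon, was at 22.6, 20.2, 23.3 and 18.6 CPM in wildtype and at 33.0 and 29.8 CPM in Cdx2P:Nr6a1 libraries. Both transgenic libraries were above every wildtype one, and the means were 21.2 ± 2.16 (SD, n = 4) and 31.4 ± 2.25 CPM (SD, n = 2). The log2 fold change was 0.56 (standard error 0.10, 95% confidence interval 0.34 to 0.78, edgeR adjusted p = 0.0275), that is 1.48-fold. The study shows Sema3a in a list of neural genes that was taken from other data but cut to genes past its threshold in these same libraries, so the gene's direction is not independent evidence for that list. The call was lost without wildtype replicate 2 (adjusted p = 0.0654, edgeR) or replicate 4 (0.0544), and without Cdx2P:Nr6a1 replicate 1 (0.225) or replicate 2 (0.0949). In those last fits the lone transgenic library was assumed to vary like the wildtype ones. Over 14 alternatives 10 called it, the adjusted p lay between 2.25e-07 and 0.225, and the log2 fold change stayed between 0.49 and 0.63. Of the neuron markers Gap43 was called higher in the same libraries (log2 fold change 1.02, standard error 0.12), while Elavl3 had a log2 fold change of -0.90 (standard error 0.22) without a call and Mnx1 of 0.14 (standard error 0.09). Sox1 of the neural tube list was called higher (1.77, standard error 0.25). The part of these cells in the Sema3a values was not tested, and in such bulk samples more cells of a type and more RNA per cell cannot be told apart.

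Sema3f, the ligand that acts mainly through Nrp2, was at 67.1, 57.8, 59.9 and 65.2 CPM in wildtype and at 78.1 and 73.8 CPM in Cdx2P:Nr6a1 libraries. Both transgenic libraries were again above every wildtype library. The log2 fold change of 0.28 (standard error 0.07, 95% confidence interval 0.12 to 0.43) was not called (adjusted p = 0.111, edgeR). It was called by 4 of the 14 alternatives (DESeq2, the likelihood ratio and exact tests of edgeR, and the fit that kept every gene with a count), and the adjusted p ranged from 0.000981 to 0.524.

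Sema3c, which attracts some axons and is known for its part in the cardiac outflow tract, was at 13.7, 9.72, 12.2 and 10.9 CPM in wildtype and at 8.21 and 8.05 CPM in Cdx2P:Nr6a1 libraries. Here both transgenic libraries were below every wildtype library, and the wildtype libraries spread widely, with a coefficient of variation of 14.8% where counting alone gives 4.09%. The log2 fold change of -0.52 (standard error 0.14, 95% confidence interval -0.84 to -0.20) was not called (adjusted p = 0.141, edgeR). It was called by DESeq2 and by the fit that kept every gene with a count, and over the 14 alternatives the adjusted p ranged from 0.00407 to 0.468. The sums of presomitic mesoderm and neural crest markers given above were lower in the same libraries, and their part in the Sema3c values was not tested. In the crest list this was Ngfr, called lower (log2 fold change -0.77, standard error 0.09), whereas Tfap2a (0.09) and Ets1 (0.08) overlapped and Sox10 and Foxd3 were near 0. In the presomitic list 0 of 5 tested genes were called (edgeR). An unadjusted p under 0.05 (edgeR) was found for 3 of them, as for 1342 of the 12733 genes tested. Tbx6 (-0.26) and Dll3 (-0.14) had both transgenic libraries below wildtype, whereas Msgn1 (-0.43), Hes7 (0.01) and Dll1 (0.04) overlapped.

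Sema3d and Sema3e showed no difference larger than the spread. Sema3d was at 11.4 to 14.6 CPM in wildtype and at 15.1 and 12.7 CPM in Cdx2P:Nr6a1 libraries, a log2 fold change of 0.12 (95% confidence interval -0.16 to 0.40, adjusted p = 0.863, edgeR). Sema3e, the ligand of Plxnd1, was at 34.7 to 42.5 CPM in wildtype and at 44.1 and 38.3 CPM in Cdx2P:Nr6a1 libraries, a log2 fold change of 0.06 (95% confidence interval -0.13 to 0.26, adjusted p = 0.902, edgeR). The groups overlapped for both genes, and the intervals still allow a change of up to 1.32-fold in Sema3d and 1.19-fold in Sema3e.

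The 4 ligand genes of chromosome 5 had log2 fold changes of both signs. In the 5.35 Mb that hold them, 6 genes of the 76 listed passed the filter, the 4 semaphorins together with Pclo and Cacna2d1, which encode a presynaptic scaffold and a calcium channel subunit. Along the chromosome the log2 fold changes were 0.12 for Sema3d, 0.56 for Sema3a, 0.06 for Sema3e, 0.24 for Pclo, -0.30 for Cacna2d1 and -0.52 for Sema3c. Pclo and Cacna2d1 were not called (adjusted p = 0.610 and 0.211, edgeR). The confidence interval of Sema3a lay above 0 and that of Sema3c below 0, and the difference between these genes was not tested on its own.

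**Figure D3:**
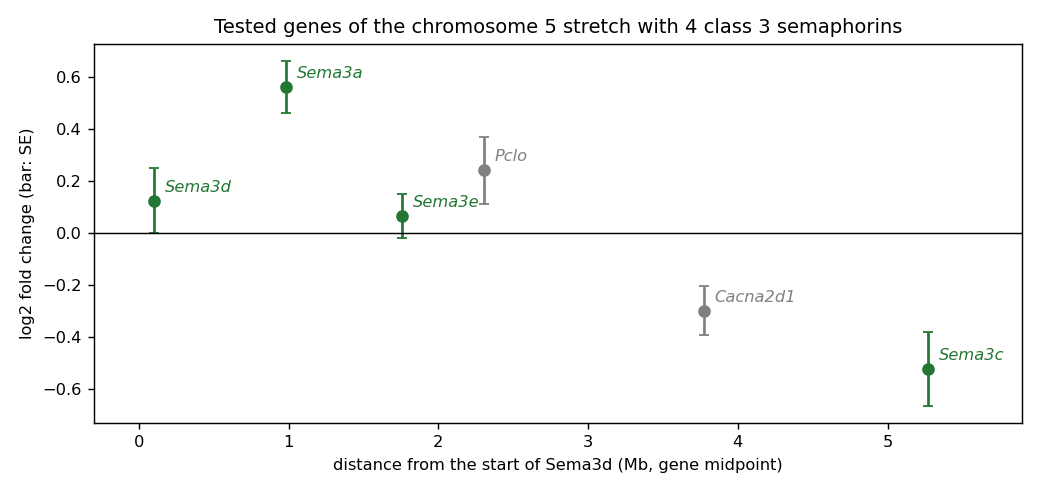
Log2 fold change with its standard error for the 6 tested genes of the chromosome 5 stretch, against the distance of the gene midpoint from the start of Sema3d in Mb, with the semaphorins in green and other genes in grey. Sema3a, at 0.56, and Sema3c, at -0.52, lie at opposite ends of the range.

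Nrp2, the receptor of Sema3f, was at 279, 261, 304 and 329 CPM in wildtype and at 312 and 279 CPM in Cdx2P:Nr6a1 libraries, within the wildtype range. Its log2 fold change was 0.0058 (95% confidence interval -0.19 to 0.21, adjusted p = 0.991, edgeR), and its sign changed with the library left out, between -0.070 and 0.079. Nrp1, the receptor of Sema3a and of some VEGF forms, was at 11.6, 15.6, 15.6 and 15.5 CPM in wildtype and at 12.7 and 20.97 CPM in Cdx2P:Nr6a1 libraries. The transgenic libraries thus lay 1 within and 1 above the wildtype range, and the confidence interval of the log2 fold change of 0.21 reached from -0.23 to 0.65 (adjusted p = 0.847, edgeR). Its sign followed the transgenic library that was kept, at -0.21 with replicate 1 alone and 0.53 with replicate 2 alone. The log2 ratio of Nrp2 to Nrp1 per length was 4.32, 3.79, 4.01 and 4.13 in wildtype and 4.34 and 3.46 in Cdx2P:Nr6a1 libraries (exact permutation test, two-sided p = 0.733, adjusted p = 0.733 over 2 ratios). The difference of -0.16 became -0.60 when Cdx2P:Nr6a1 replicate 1 was left out and 0.28 when replicate 2 was.

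The 3 plexins, which carry the signal across the membrane, were steadier among the wildtype libraries than the 5 ligands. Their coefficients of variation were 2.18% to 4.15% against 6.98% to 14.8%, where counting alone gives 1.01% to 1.27% against 1.77% to 4.09%. Plxna2 was at 159, 155, 156 and 164 CPM in wildtype and at 136 and 148 CPM in Cdx2P:Nr6a1 libraries, both below every wildtype library. Its log2 fold change of -0.17 (standard error 0.05, 95% confidence interval -0.29 to -0.05) was not called (adjusted p = 0.223, edgeR, between 0.0889 and 0.871 over the 14 alternatives). Plxna1 was at 189 to 197 CPM in wildtype and at 181 and 207 CPM in Cdx2P:Nr6a1 libraries, 1 below and 1 above the wildtype range. Its log2 fold change was 0.0058 (95% confidence interval -0.13 to 0.14, adjusted p = 0.990, edgeR), which moved to -0.10 when Cdx2P:Nr6a1 replicate 2 was left out and to 0.11 when replicate 1 was. Plxnd1, a plexin of vessels and the receptor of Sema3e, was at 115, 116, 123 and 125 CPM in wildtype and at 111 and 143 CPM in Cdx2P:Nr6a1 libraries, again 1 below and 1 above. Its log2 fold change of 0.08 (95% confidence interval -0.12 to 0.29, adjusted p = 0.878, edgeR) became -0.11 with Cdx2P:Nr6a1 replicate 1 alone and 0.25 with replicate 2 alone. Of the 5 receptor genes, 0 were called in the edgeR fit or in the 14 alternatives, DESeq2 included. In the edgeR fit 1 of them, Plxna2, had an unadjusted p under 0.05, as did 1342 of the 12733 genes tested.

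Nrp1 and Plxnd1, both expressed in endothelium, differed most between the transgenic libraries among the receptors. Cdx2P:Nr6a1 replicate 2 was 1.65 times replicate 1 for Nrp1, 1.28 times for Plxnd1 and 1.15 times for Plxna1. All 6 endothelial markers (Pecam1, Cdh5, Tek, Tie1, Emcn and Esam) were also higher in replicate 2, where 45.8% of all genes tested were, and their summed CPM was 172 in replicate 1 and 211 in replicate 2. In wildtype libraries that sum was 154, 166, 203 and 188 CPM, lowest in replicate 1, the library that was also lowest for Nrp1. Other lists also differed between the transgenic libraries. From replicate 1 to replicate 2 the sums were 12.6 and 45.1 CPM for macrophages, of which Lyz2 gave 4.99 and 28.7, and 9788 and 13520 CPM for erythroid cells. Those of limb and ventral mesoderm were 1.38 and 5.66 CPM. Between the genotypes 0 of the 6 endothelial markers were called (edgeR), 0 had an unadjusted p under 0.05, and all 6 overlapped. The part of these cell types in the Nrp1 and Plxnd1 values was not tested.

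**Figure D4:**
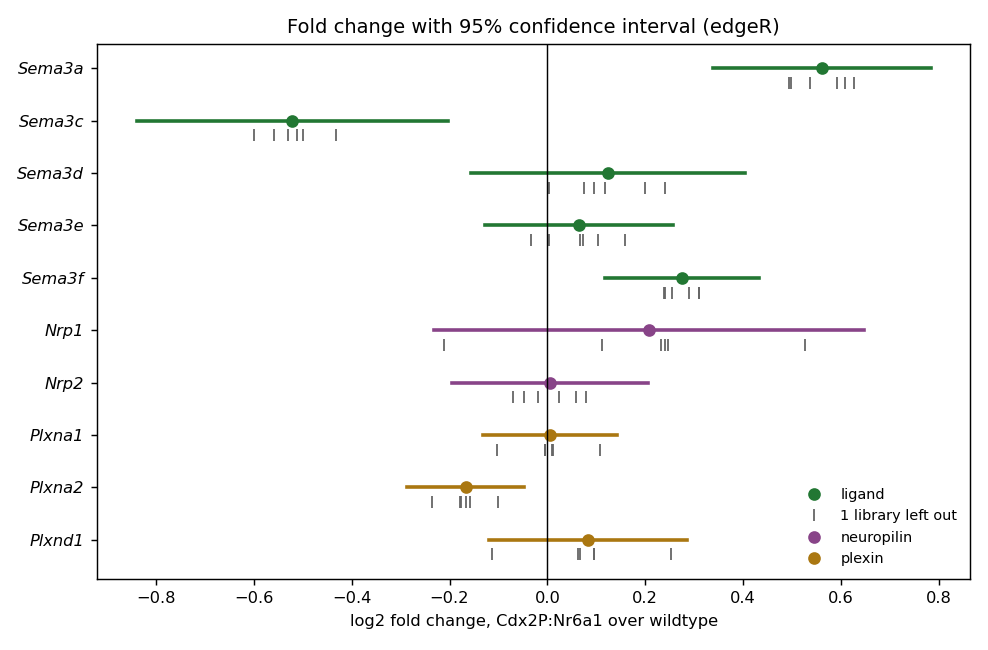
Log2 fold change of each gene, Cdx2P:Nr6a1 over wildtype, with its 95% confidence interval from edgeR (line) and the values with 1 library left out (grey ticks below), coloured by role. Only the intervals of Sema3a, Sema3c, Sema3f and Plxna2 leave out 0, and the ticks of Nrp1, Nrp2, Sema3e, Plxna1 and Plxnd1 fall on both sides of 0.

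Other genes of the pathway were read from 4 lists. Of 21 other semaphorin and plexin genes 20 were tested, and their log2 fold changes ran from -0.36 to 0.53 around a median of 0.09. By edgeR's quasi-likelihood test 0 of them were called, and 4 had an unadjusted p under 0.05, as did 1342 of the 12733 genes tested. The likelihood ratio test, the exact test and DESeq2 each called 1 of them, and called 401, 391 and 477 genes in all. The 2 with the smallest p were Sema4g, at 55.2 to 59.8 CPM in wildtype and 51.5 and 46.5 CPM in Cdx2P:Nr6a1 libraries (log2 fold change -0.24, adjusted p = 0.0972, edgeR), and Sema4f, at 2.29 to 3.71 CPM and then 4.22 and 4.14 CPM (0.53, adjusted p = 0.318). Plxnb2 at 310 to 343 CPM and Plxnb1 at 267 to 277 CPM in wildtype, receptors of class 4 semaphorins, exceeded each plexin described above in CPM, a comparison not corrected for length. Of the VEGF ligands and receptors that share the neuropilins, 6 of 8 were tested and 0 were called by edgeR. An unadjusted p under 0.05 (edgeR) was found for 3 of the 6, and for 1342 of the 12733 genes tested. Vegfc was at 19.1 to 24.1 CPM in wildtype and at 16.5 and 17.7 CPM in Cdx2P:Nr6a1 libraries (log2 fold change -0.34, adjusted p = 0.202, edgeR). Vegfa was at 72.6 to 79.0 CPM in wildtype and at 103 and 79.0 CPM in Cdx2P:Nr6a1 libraries (0.26, adjusted p = 0.303), and it was called without replicate 2 of the latter (adjusted p = 0.0498, edgeR).

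Among 7 cell surface partners of these receptors 1 was called, on the lower side, where 0.809% of all genes were called lower. This was Chl1, an adhesion molecule of the L1 family that joins neuropilins. It was at 10.03, 7.84, 9.05 and 8.27 CPM in wildtype and at 5.76 and 5.55 CPM in Cdx2P:Nr6a1 libraries, which is -0.64 on the log2 scale (edgeR adjusted p = 0.0377, standard error 0.12). The call was lost without wildtype replicate 3 (adjusted p = 0.104, edgeR) or 4 (0.0611), and with Y-linked expression as a covariate (0.0870). Without Cdx2P:Nr6a1 replicate 1 or 2 it was lost too, at log2 fold changes of -0.66 and -0.62. The log2 fold change was -0.65 with the covariate and between -0.70 and -0.58 over the 14 alternatives. Cntn2, another adhesion molecule of axons, was at 20.4 to 24.5 CPM and then at 30.6 and 26.5 CPM without a call (adjusted p = 0.101, edgeR). L1cam itself, at 2.45 to 3.45 CPM and then 4.15 and 3.29 CPM, overlapped between the genotypes.

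Of 29 cytoplasmic mediators, all of them tested, 2 were called, both higher, where 0.785% of all genes were called higher, and the median log2 fold change was -0.001. Dpysl4, a collapsin response mediator protein (CRMP), was at 18.9, 23.1, 21.1 and 20.3 CPM in wildtype and at 30.04 and 34.9 CPM in Cdx2P:Nr6a1 libraries. The log2 difference was 0.64 (edgeR adjusted p = 0.0131, standard error 0.09), and 13 of the 14 alternatives called it, all but the fit without Cdx2P:Nr6a1 replicate 2 (0.111). Rnd1, which encodes a protein that binds plexins, was at 3.84, 4.21, 4.02 and 3.31 CPM in wildtype and at 6.08 and 6.80 CPM in Cdx2P:Nr6a1 libraries. The log2 difference was 0.74 (edgeR adjusted p = 0.0264, standard error 0.13). Rnd1 lost its call without wildtype replicate 3 (adjusted p = 0.0615, edgeR) or 4 (0.0502). The call was also lost with Y-linked expression as a covariate (0.0700) and with the replicate number as a block (0.0600). Without Cdx2P:Nr6a1 replicate 1 or 2 it was lost too, at log2 fold changes of 0.82 and 0.65, the ends of the range over the 14 alternatives.

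The CRMP genes encode the cytoskeletal proteins through which Sema3a collapses growth cones, and they were set apart after their values were seen. Of the 5, 4 had both Cdx2P:Nr6a1 libraries above every wildtype library, as did 10.1% of all genes tested, and 1, Dpysl4, was called, as were 1.59% of all genes. Since the family was chosen for these values, nothing is read from the counts. Crmp1 was at 36.4 to 50.3 CPM in wildtype and at 55.4 and 60.1 CPM in Cdx2P:Nr6a1 libraries (log2 fold change 0.48, adjusted p = 0.0836, edgeR). Dpysl3 was at 81.2 to 87.0 CPM and then at 97.8 and 125 CPM (0.40, adjusted p = 0.0678, edgeR). Dpysl2, with a log2 fold change of 0.10 (adjusted p = 0.593, edgeR), differed least of the 4. Dpysl5, the most abundant of them in CPM, was at 186 to 210 CPM in wildtype and at 168 and 191 CPM in Cdx2P:Nr6a1 libraries, which overlapped. The summed neuron markers were higher in the same libraries, and their part in these values was not tested. Among these markers Gap43, which was called, Tubb3 and Stmn2 had both transgenic libraries above wildtype, and Elavl3 had both below.

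**Figure D5:**
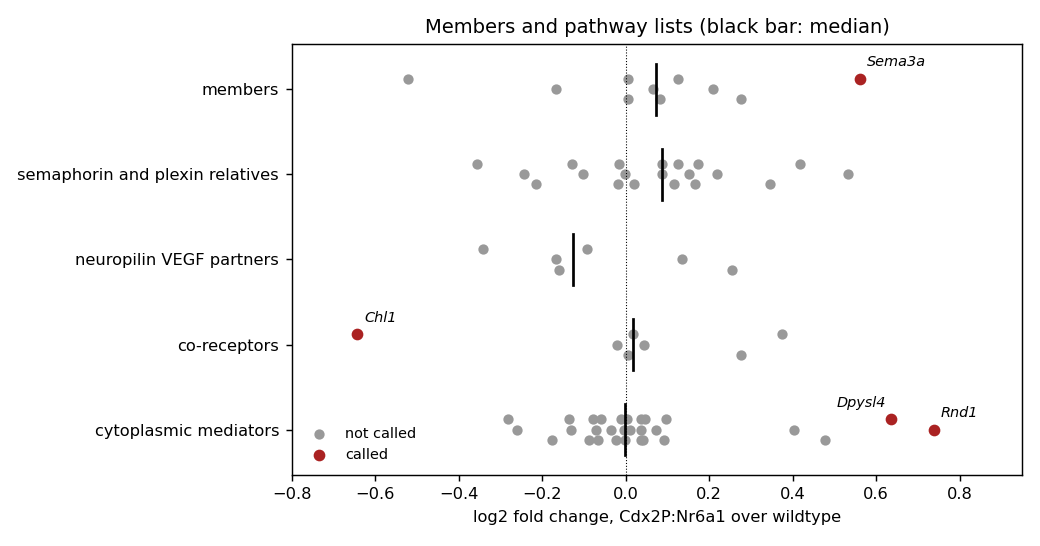
Log2 fold change, Cdx2P:Nr6a1 over wildtype, of each tested gene of the 10 members and of the 4 pathway lists, with called genes in red and named, other genes in grey and the median as a black bar. The called genes are Sema3a, Dpysl4 and Rnd1 on the higher side and Chl1 on the lower side.

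The genes whose pattern over the 6 libraries was most like that of Sema3a were Qars (Pearson r = 0.994 of log2 CPM), Wdr5 (0.991) and D930048N14Rik (0.985). Over so few libraries 36 of the 12732 other genes tested had an r over 0.95. Qars and Wdr5 changed little in size, with log2 fold changes of 0.04 and 0.07, so that the likeness is one of rank and shape only.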

How the data were processed

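RNA-seq counts of 6 tailbud libraries were analysed, grouped as 4 wildtype and 2 Cdx2P:Nr6a1 by their labels. The authors aligned the reads with STAR to mm10 and deposited raw counts per gene for 54134 genes, without normalization, with 0 columns of other samples. The libraries were polyA-selected and stranded, but the counting program and its strand setting are not given in the sources used here. A deposited table of the authors' own edgeR results, with fold changes, p-values and CPM of called genes, was not used. The exon length deposited beside the counts served for CPM per kilobase.

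The filter of the study was kept, more than 10 counts and more than 2 CPM in 2 or more libraries. Counts were normalized by TMM (factors 0.992 to 1.007) and tested in edgeR 4.0.16 (R 4.3.3) by the quasi-likelihood test without covariates. The standard error is the log2 fold change divided by the square root of F. CPM in the text is the count over the library total, and intervals use the t distribution of the fit. The code was tested on simulated data. Alternatives used limma 3.58.1 and DESeq2 1.42.0 (15 planned, 1 added after seeing the data, a covariate of Y-linked expression). Plots used Python 3.11.15 with matplotlib 3.10.9. At these depths the biological coefficient of variation was 9.40%.

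The members and lists were chosen with earlier results of these data known. Named genes are the 10 members, Nr6a1, the called genes of each pathway list or else the 2 with the smallest p, the 3 genes most like a called member, marker genes and genes sharing exon bases with a member. Other genes were named after their values were seen (Plxnb1, Plxnb2, L1cam, Cntn2, the CRMP genes, Pclo and Cacna2d1). The symbol Figf is listed as Vegfd.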

Additional observations from a re-analysis of the deposited data

Results flagged for a closer look

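In wildtype replicate 1, Nrp1 was at 11.6 CPM, whereas the other wildtype libraries were at 15.5 to 15.6 CPM. The gap to the nearest of them was 0.974 of the whole range, above the critical value of Dixon's test for 4 samples at the 95% level. Of 20 sets of wildtype values examined this was the 1 that passed, and chance passes about 1 in 20. Without that library the log2 fold change of Nrp1 was 0.11 and was not called (edgeR).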

How the results depend on the processing

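Sema3a, Sema3c, Sema3d, Sema3f and Plxna2 kept the sign of their fold change under the 14 alternatives, with the Y-linked covariate and with the replicate block. Of the 10 members, the number called was 1 with all libraries, 2 by the likelihood ratio test and 2 by the exact test of edgeR, 3 by DESeq2, 3 without a filter on low counts, and 0 to 1 with 1 library left out. Of all genes, 401, 391, 477 and 876 were called under these settings, against 203, and 61 to 175 with 1 library left out. The other semaphorins and plexins had 1, 1, 1 and 2 calls, the VEGF partners 2 without a filter and 0 to 1 with a library left out, the surface partners 2, 2, 2 and 2 (0 to 1 with a library left out), and the mediators 4, 4, 4 and 6 (0 to 3). With Y-linked expression as a covariate, chosen after seeing the data, 0 surface partners, 1 mediator and 136 genes in all were called, against 203. With 1 library left out, the difference in the ligand to receptor ratio lay between 0.076 and 0.312 and that in the Nrp2 to Nrp1 ratio between -0.602 and 0.284. Signs reversed for Nrp2 (-0.0040) and Plxna1 (-0.0041) with filterByExpr, and for Plxna1 (-0.012) with the Y-linked covariate. With a library left out the log2 fold changes ran from -0.034 to 0.16 for Sema3e, -0.21 to 0.53 for Nrp1, -0.070 to 0.079 for Nrp2, -0.10 to 0.11 for Plxna1 and -0.11 to 0.25 for Plxnd1. The cause of these shifts was not tested. With 2 transgenic libraries, a gene whose confidence interval includes 0 may still differ by any size within that interval.

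The genotypes share the replicate numbers 1 and 2, which nothing ties to a litter or batch. Over genes, the deviations of same-numbered libraries correlated at 0.241 for number 1 and -0.192 for number 2. The highest value, 0.367, was that of wildtype replicate 3 with Cdx2P:Nr6a1 replicate 2. With 2 transgenic libraries their deviations mirror each other, so these values cannot decide whether the numbers mark pairs. With the replicate number as a block, 1 member, 2 surface partners, 5 mediators and 442 genes in all were called, Rnd1 lost its call (adjusted p = 0.0600, edgeR) and Sema3e reversed to -0.0066.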
